A study of Mus musculus with 10 samples.

Results

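The genes of nutrient uptake by the absorptive cells of the small intestine were followed through the 10 arrays of the series. The 10 members are the sugar transporters Slc5a1, Slc2a2 and Slc2a5, the fatty acid binding proteins Fabp1 and Fabp2, the fatty acid receptor Cd36, the sterol transporter Npc1l1, and Mogat2, Dgat1 and Mttp, which rebuild and package dietary triglyceride. Every probe set of the array named with 1 of these symbols and no other was taken, which gave 16 of the 45101 probe sets and all 10 genes, of 18193 genes with a symbol. The animals were male ICR mice, an outbred stock, housed 1 to a cage free of specific pathogens, and their tissues were taken at 28 months of age. From 8 months of age the control mice ate AIN-93, a purified diet, and the others ate it with LB81 yogurt added at 1 to 2%, so that every animal was on AIN-93. Equal amounts of RNA of the 9 control mice or of the 10 yogurt-fed mice were pooled for jejunum, ileum, distal colon, liver and spleen, and each pool was measured on 1 Affymetrix mouse expression array. There are thus 2 arrays per tissue, 1 per diet, and the spread between mice was lost in the pools.

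Dietary glucose and galactose enter the enterocyte through the sodium-coupled transporter SGLT1, encoded by Slc5a1, and fructose enters through GLUT5, encoded by Slc2a5. Both sugars can leave towards the blood through GLUT2, encoded by Slc2a2. Fatty acids and monoacylglycerol taken up from the lumen are bound by FABP1 and FABP2, re-esterified to triglyceride by MOGAT2 and DGAT1, and loaded onto apolipoprotein B by MTTP, while NPC1L1 takes up cholesterol. Jejunum is the main site of sugar and fat absorption, ileum absorbs what remains and recovers bile acids, and colon absorbs mainly water, salts and short-chain fatty acids.

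All values are log2 expression values per probe set as deposited, and a difference of 1 is a 2-fold change. The median of each array, which lay between 5.42 and 5.49, served as a floor: a value below it was raised to it, and a fold against a tissue with an array at the floor is a lower bound. Where a gene has several probe sets, the one with the highest mean is given unless stated, and levels are compared between tissues only, never between genes. Tissues were compared by a limma fit of tissue and diet over the 10 arrays, in which the error is the scatter of the diet ratio between tissues, so its p-values do not measure the spread between mice. Marker genes were set against the tissue labels, though none of the lists was specific to jejunum. All 12 epithelial markers were above the floor on the jejunum and ileum arrays, the ileal genes Fabp6, Slc10a2 and Fgf15 were above it in both ileum pools and in neither jejunum pool, all 7 distal colon markers that could be named lay above it in both colon pools, and all 9 named hepatocyte markers in both liver pools against none in spleen, where all 7 named B cell markers were. Of the 9 hepatocyte markers, 3 or 4 also lay above the floor on each gut array. Some distal colon markers were high elsewhere, Car1 at 11.57 and 11.39 in spleen and Aqp8 at 10.15 and 9.74 in liver. Car4 stood at 10.49 and 10.33 in ileum. Hoxb13, Hoxd13, Hoxa13 and Hoxd10 were below the floor outside colon. Of the 7 B cell markers, 5 with yogurt and 6 in the control pool were above it in colon, and 3 or 4 in jejunum, ileum and liver. The jejunum arrays also carried markers of pancreas and stomach. All 10 named exocrine pancreas genes and 8 of 9 gastric genes were above the floor in both pools. Some of these were high, such as Gkn3 at 13.07 with yogurt and 13.16 in the control pool, and Cela2a at 13.24 and 11.94. The part of such tissue, or of where the jejunum was taken, in the jejunum values and contrasts below was not tested.

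**Figure D1:**
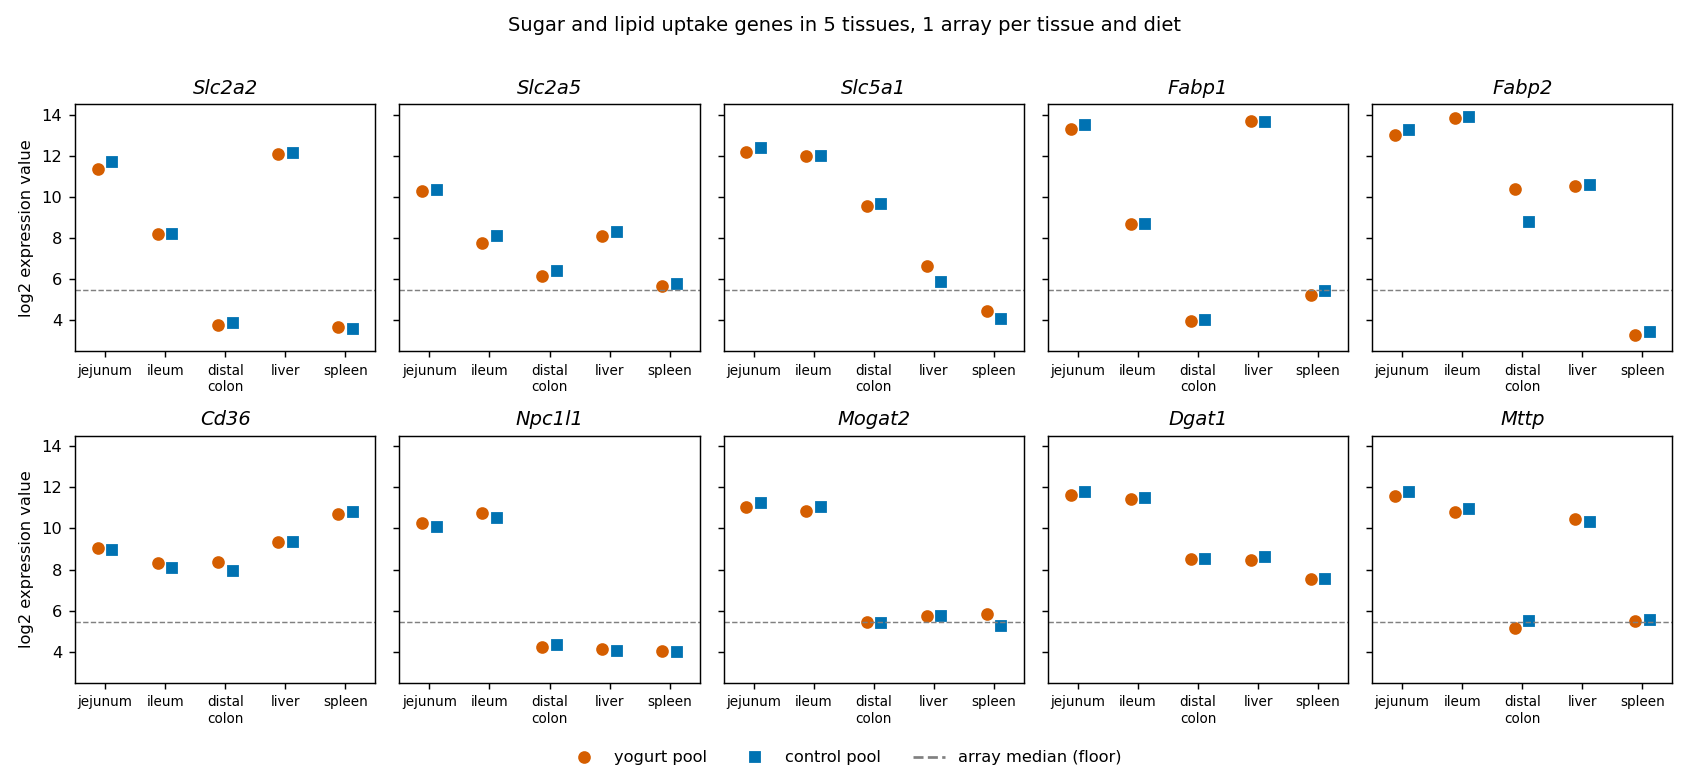
Log2 expression value of the brightest probe set of each of the 10 genes (vertical axis, log2 scale) in 5 tissues (horizontal axis), with circles for the yogurt pool, squares for the control pool and a dashed line at the mean of the array medians. Slc2a2 and Fabp1 are high in jejunum and liver, Npc1l1 and Mogat2 in jejunum and ileum, and Cd36 has its highest values in spleen; the widest gap between the diets is that of Fabp2 in distal colon, 10.39 against 8.76.

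The glucose transporters took different tissue patterns. Slc2a2 was highest in liver and jejunum. Its values in the yogurt and control pools were 11.34 and 11.72 in jejunum, 8.22 and 8.20 in ileum, 3.77 and 3.87 in distal colon, 12.08 and 12.12 in liver, and 3.70 and 3.59 in spleen. Distal colon and spleen were therefore below the floor, ileum lay between, and the pools of liver, jejunum and ileum did not overlap. The order of colon and spleen, both at the floor, was not read. Jejunum exceeded ileum 9.97-fold (log2 difference 3.32, SE 0.11, limma adjusted p = 1.2e-06) and distal colon at least 66.0-fold (at least 6.04, SE 0.11, adjusted p = 2.43e-08). Liver was slightly above jejunum (0.57, SE 0.11, adjusted p = 0.00182), a difference of 1.49-fold that missed the 2-fold limit for a call. The sodium-coupled Slc5a1 instead ran down the gut. Its values were 12.21 and 12.38 in jejunum, 11.99 in both ileum pools, 9.55 and 9.65 in distal colon, 6.66 and 5.89 in liver, and 4.46 and 4.07 in spleen. The small difference between jejunum and ileum did not pass the test (0.31, SE 0.20, adjusted p = 0.323), while a second probe set gave 0.37 (SE 0.08, adjusted p = 0.0136, and 0.138 without the floor). Distal colon was 5.23-fold below ileum (ileum minus colon 2.39, SE 0.20, adjusted p = 7.93e-05) yet 10.0-fold above liver (colon minus liver 3.32, SE 0.20, adjusted p = 3.24e-06). With Slc2a5, Fabp2, Cd36 and Dgat1 it was 1 of the 5 members above the floor in both colon pools.

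The fructose transporter Slc2a5 was highest in jejunum alone. It measured 10.27 and 10.36 in jejunum, 7.76 and 8.12 in ileum, 6.18 and 6.41 in distal colon, 8.10 and 8.29 in liver, and 5.69 and 5.75 in spleen. Jejunum was 4.35-fold above liver (2.12, SE 0.09, adjusted p = 4.62e-07) and 5.18-fold above ileum (2.37, SE 0.09, adjusted p = 2.84e-06). Liver and ileum were close (0.25 higher in liver, SE 0.09, adjusted p = 0.0388), and their 4 arrays overlapped only at 8.12 in ileum against 8.10 in liver. Distal colon and spleen followed in that order.

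The fatty acid binding proteins separated into a jejunum and liver pattern and a pattern of the whole small intestine. Fabp1, the liver-type protein that binds fatty acids and other lipids, measured 13.30 and 13.50 in jejunum, 8.69 in both ileum pools, 3.96 and 4.0 in distal colon, 13.68 and 13.63 in liver, and 5.24 and 5.44 in spleen. Its fall from jejunum to ileum, 26.2-fold, was the steepest of the 10 genes (4.71, SE 0.07, adjusted p = 3.74e-08), and the second probe set gave 4.29. Liver was above jejunum by 0.25 (SE 0.07, adjusted p = 0.0129). For jejunum minus liver the second probe set gave -0.18 (SE 0.06, limma adjusted p = 0.0232), which did not pass without the floor (adjusted p = 0.391). Fabp2, the intestinal protein, measured 13.02 and 13.25 in jejunum, 13.84 and 13.88 in ileum, 10.39 and 8.76 in distal colon, 10.55 and 10.60 in liver, and 3.31 and 3.43 in spleen. Both ileum pools were above both jejunum pools, by a mean log2 difference of 0.73 that did not pass the test (SE 0.40, adjusted p = 0.23). The SE is wide because the colon pools of Fabp2 were far apart: without the control colon array the same 0.73 had an adjusted p of 0.000484, and without the yogurt colon array one of 5e-04. Ileum exceeded distal colon 19.5-fold (4.28, SE 0.40, adjusted p = 0.000121). The colon level itself rests on the pool: liver was above colon by 1.00 (adjusted p = 0.0597, and 0.0278 without the floor) with all arrays, by 1.85 without the yogurt colon array and by 0.14 without the control one.

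Slc2a2 and Fabp1 followed each other closely, with a Pearson correlation of 0.999 over the 10 arrays, a description in which the 5 tissues carry nearly all the spread. Their upstream sequences are shown because the 2 genes shared the jejunum and liver pattern. Promoters of 8 of the 10 genes were matched in the RefSeq table of GRCm38.p6, those of Mogat2 and Dgat1 not. The 250 bases before the start site are printed 5′ to 3′ on the strand of the gene, and capitals mark matches, on either strand, to the motifs TATAAA (a core promoter element), GTTAAT (core of HNF1 sites), AGGTCA (core of nuclear receptor sites), CAAAG (core bound by HNF4-type receptors and TCF factors), TTTAT (core of CDX sites) and AGATAA (core of sites of Gata4 and its relatives).
Fabp1, chr6:71199629-71199878, + strand: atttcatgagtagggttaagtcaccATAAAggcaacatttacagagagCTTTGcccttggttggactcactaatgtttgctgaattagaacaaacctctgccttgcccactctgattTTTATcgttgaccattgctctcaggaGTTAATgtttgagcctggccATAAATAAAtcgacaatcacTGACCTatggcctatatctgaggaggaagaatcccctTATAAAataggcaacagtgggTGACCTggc
Slc2a2, chr3:28697653-28697902, + strand: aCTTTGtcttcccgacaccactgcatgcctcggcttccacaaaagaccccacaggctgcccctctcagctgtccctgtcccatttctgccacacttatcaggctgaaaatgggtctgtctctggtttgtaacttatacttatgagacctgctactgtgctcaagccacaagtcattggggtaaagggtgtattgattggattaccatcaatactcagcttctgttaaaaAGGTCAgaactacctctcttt
The Fabp1 window held 10 matches and the Slc2a2 window 2. Positions count back from -1, the base before the start site, and give the leftmost base of a match. In Fabp1 TATAAA lies at -30 and overlaps a TTTAT match of the other strand at -29, GTTAAT lies at -107, and AGGTCA is on the other strand at -67 and -9. In Slc2a2 AGGTCA lies at -21 and CAAAG on the other strand at -249. A match is only an occurrence of these letters: among all 32851 windows of this length in the table, 12.4% held TATAAA, 6.43% GTTAAT, 14.0% AGGTCA, 48.6% CAAAG, 37.3% TTTAT and 9.99% AGATAA. Of the 8 matched members, 1 held TATAAA, 2 held GTTAAT, 4 held AGGTCA, 6 held CAAAG, 4 held TTTAT and none held AGATAA. The share of G and C was 42.8% in Fabp1 and 47.2% in Slc2a2, with a median of 52.4% over all windows.

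Npc1l1, Mogat2 and Dgat1 had their highest values in jejunum and ileum, as did Slc5a1 and Fabp2. Npc1l1, the target of the drug ezetimibe, measured 10.27 and 10.05 in jejunum, 10.75 and 10.51 in ileum, 4.26 and 4.32 in distal colon, 4.16 and 4.02 in liver, and 4.03 and 3.98 in spleen. Its 4 small intestinal arrays passed it through the filter on low values alone, and outside them it lay below the floor. Ileum was above jejunum by 0.47 (SE 0.09, adjusted p = 0.00834), and jejunum was at least 25.6-fold above distal colon (4.68, SE 0.09, adjusted p = 4.6e-08). Mogat2, which acylates monoacylglycerol, measured 11.03 and 11.24 in jejunum, 10.87 and 11.04 in ileum, 5.44 and 5.42 in distal colon, 5.73 and 5.74 in liver, and 5.82 and 5.25 in spleen. Jejunum and ileum overlapped and their difference did not pass the test (0.18, SE 0.13, adjusted p = 0.36), and the other 3 tissues were all close to the floor. Jejunum was at least 50.1-fold above distal colon (5.65, SE 0.13, adjusted p = 9.81e-08). Dgat1, which adds the last acyl chain of triglyceride in many tissues, measured 11.62 and 11.79 in jejunum, 11.41 and 11.49 in ileum, 8.50 and 8.53 in distal colon, 8.49 and 8.60 in liver, and 7.56 and 7.52 in spleen. It was above the floor on every array. Jejunum exceeded distal colon 9.14-fold (3.19, SE 0.06, adjusted p = 3.36e-08) and ileum by only 0.25 (SE 0.06, adjusted p = 0.0163), while the difference between colon and liver did not pass the test (0.03, SE 0.06, adjusted p = 0.686). A dimmer second probe set of Dgat1 gave at least 3.51-fold for jejunum over colon.

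The upstream windows of Npc1l1 and Fabp2 are shown because the mean of both genes was higher in ileum than in jejunum, unlike the 2 genes printed above.
Npc1l1, chr11:6230246-6230495, - strand: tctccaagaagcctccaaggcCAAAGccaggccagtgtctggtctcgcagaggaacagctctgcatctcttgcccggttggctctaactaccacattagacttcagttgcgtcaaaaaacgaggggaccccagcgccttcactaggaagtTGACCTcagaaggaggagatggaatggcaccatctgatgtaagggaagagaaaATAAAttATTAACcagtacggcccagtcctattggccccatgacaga
Fabp2, chr3:122894822-122895071, + strand: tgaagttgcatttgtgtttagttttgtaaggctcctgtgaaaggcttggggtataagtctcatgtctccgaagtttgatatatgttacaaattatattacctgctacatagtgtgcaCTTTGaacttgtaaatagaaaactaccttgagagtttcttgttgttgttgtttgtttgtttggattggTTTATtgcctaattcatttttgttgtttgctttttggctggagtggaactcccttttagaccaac
Npc1l1 held 4 matches, among them GTTAAT at -40 and AGGTCA at -100, both on the other strand. Fabp2 held 2, CAAAG on the other strand at -133 and TTTAT at -65. The Fabp2 window was the poorest of the 8 in G and C, at 35.6%.

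Mttp also had its highest values in jejunum and ileum, with liver close below ileum, while Cd36 was highest in spleen. Mttp, the transfer protein needed for chylomicrons in gut and very-low-density lipoprotein in liver, measured 11.60 and 11.77 in jejunum, 10.78 and 10.97 in ileum, 5.18 and 5.49 in distal colon, 10.44 and 10.33 in liver, and 5.48 and 5.55 in spleen. It fell in steps from jejunum to ileum (0.81, SE 0.08, adjusted p = 0.000383) and from ileum to liver (0.49, SE 0.08, adjusted p = 0.00112), then to the floor in colon and spleen. The other probe set gave 1.04 for the first step but only 0.17 for the second (SE 0.05, limma adjusted p = 0.0226, and 0.0506 without the floor). Jejunum was at least 73.3-fold above distal colon (6.20, SE 0.08, adjusted p = 7.81e-09). Cd36, a scavenger receptor and fatty acid translocase also found on macrophages, platelets, capillaries and adipocytes, measured 9.07 and 8.94 in jejunum, 8.32 and 8.09 in ileum, 8.35 and 7.93 in distal colon, 9.34 and 9.35 in liver, and 10.69 and 10.81 in spleen. By the brightest probe set its order was spleen, liver, jejunum, then ileum and colon, which overlapped (0.06, SE 0.12, adjusted p = 0.769). The step from liver to jejunum was small (jejunum minus liver -0.34, SE 0.12, limma adjusted p = 0.0349). A second probe set gave -0.16, which did not pass the test (SE 0.13, limma adjusted p = 0.338). The dimmest gave -0.65 (SE 0.15, limma adjusted p = 0.00524), so this step rests on the probe set. Spleen was 3.36-fold above jejunum (jejunum minus spleen -1.75, SE 0.12, adjusted p = 5.2e-06). The same arrays had the highest summed levels, on the antilog scale, of the 11 macrophage genes (15890 and 18114 in spleen, 3571 to 9047 elsewhere) and of the 8 named platelet genes (13552 and 10854 in spleen, 536 to 1542 elsewhere), whose part in the Cd36 level was not tested. Of these genes the macrophage marker Vsig4 was below the floor in both spleen pools and the platelet marker Gp6 in the control pool. The sum of the 10 capillary genes was also highest in spleen, by a small margin (2697 and 2748, 1736 to 2684 elsewhere). Among them Emcn was below the floor in both spleen pools. The adipocyte sum was instead highest in liver (14016 and 13136), where Car3 stood at 13.56 and 13.48. The part of these 2 lists was not tested either. The difference between jejunum and colon, 0.86 (SE 0.12, adjusted p = 0.000599), missed the 2-fold limit and passed it at 1.04 without the yogurt colon array. Another Cd36 probe set gave 2.07-fold for this pair and the dimmest at least 1.23-fold. In whole tissue, fewer cells of a type and less RNA per cell cannot be told apart, for this gene and for all that follow.

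Counted together by a call of adjusted p under 0.05 and at least 2-fold, 9 of the 10 genes were higher in jejunum than in distal colon, where 4% of all 26905 probe sets tested were, and 9 were higher in ileum than in colon, against 3.52%. The genes were gathered for known roles in the small intestine, so these counts describe them and are no independent test. From jejunum to ileum 3 genes were called, Slc2a2, Slc2a5 and Fabp1, all higher in jejunum, against 1.85% of all probe sets in that direction. Jejunum was higher than liver for 7 genes against 12.3% of all, the exceptions being Slc2a2, Fabp1 and Cd36, and higher than spleen for 9 against 13.8%, with Cd36 the 1 gene higher in spleen against 11.3%. The median log2 difference over the 10 genes was, with values at the floor taken as such, 4.35 between jejunum and colon and 0.56 between jejunum and ileum, and that over all probe sets was -0.011 and -0.002. Ileum exceeded liver for 5 genes (Slc5a1, Fabp2, Npc1l1, Mogat2 and Dgat1, against 13.1% of all probe sets) and liver exceeded ileum for 3 (Slc2a2, Fabp1 and Cd36, against 10.3%). Ileum exceeded spleen for 9 (14.3%), again with Cd36 the 1 gene higher in spleen (11.8%). Between colon and liver Slc5a1 was the 1 gene higher in colon (14.6%), and Slc2a2, Slc2a5, Fabp1, Cd36 and Mttp were the 5 higher in liver (9.28%). Between colon and spleen, 2 genes, Slc5a1 and Fabp2, were higher in colon (14.8%) and 1, Cd36, in spleen (10.1%). Liver exceeded spleen for 6 genes (14.3%), Slc2a2, Slc2a5, Fabp1, Fabp2, Mttp and, at 2.01-fold, Dgat1, and only Cd36 was higher in spleen (16%). The dimmer Dgat1 probe set went the other way, with liver minus spleen at -0.32 (SE 0.14, limma adjusted p = 0.0646). It also gave -0.42 for colon minus spleen, where the first gave 0.97, so the place of spleen for Dgat1 rests on the probe set. Fitted without the floor, 8 genes were called between liver and spleen in place of 7, with Slc5a1 added at 2.01 (adjusted p = 3.13e-06), and 4 between colon and spleen in place of 3, with Fabp1 added, which lay below the floor in both tissues.

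The genes whose floored values ran most like each member over the 10 arrays were named among 3912 genes that varied by at least 2 log2 units. For Slc2a2 they were Fabp1 (Pearson r 0.9985), Leap2 (0.9984) and Cyp3a11 (0.9979), and for Fabp1 they were Slc2a2, Leap2 (0.9967) and Cyp3a11 (0.9948). Npc1l1 ran closest to Slc13a1 (0.998), Ms4a18 (0.9971) and Ccl25 (0.9967), and Mogat2 to Slc13a1 (0.9965), Ccl25 and Defa39 (both 0.9962). Slc2a5 was nearest Xdh (0.987), Nat8f5 (0.9675) and Dglucy (0.9658), and Slc5a1 nearest Vat1 (0.9947), Pi4k2b (0.9934) and Cgref1 (0.993). Fabp2 was nearest Cyp2j6 (0.9888), Ces2e (0.9872) and Selenoi (0.9852), and Dgat1 nearest Tfg (0.99), Igsf23 and the fatty acid transporter Slc27a4 (both 0.9892). The neighbours of Mttp were Nat8 (0.9883), Gpd1 (0.9855) and Apoa1 (0.9846). Cd36 ran with the leukocyte genes Csf3r (0.9897), Cd300a (0.9868) and Clec4a2 (0.9848). The points share tissues and pools, so these values are descriptions.

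The companion genes of each step shared the gradient only in part. Between jejunum and distal colon, 4% of all probe sets were higher in jejunum and 5.88% lower. Of 28 genes of glyceride resynthesis and chylomicron assembly, 16 were higher in jejunum and 1 lower, with a median of 1.16. They were led by the apolipoprotein genes Apoa1 (at least 284-fold, adjusted p = 1.59e-10), Apoa4 (at least 196-fold, adjusted p = 7.51e-09) and Apoc3 (at least 126-fold, adjusted p = 2.17e-09), each below the floor in both colon pools. Of 17 fatty acid binding and acyl-CoA genes 4 were higher and 3 lower, with a median of -0.01. Rbp2, the cellular retinol binding protein of enterocytes, was 34.5-fold higher in jejunum, and the fatty acid transport proteins Slc27a2 and Slc27a4 were 18.8-fold and 5.20-fold higher. The sugar list divided evenly, with 5 of 21 genes higher and 5 lower. Fructokinase Khk was 9.06-fold higher in jejunum and glucose-6-phosphatase G6pc at least 8.76-fold. Among the 5 lower, Slc5a8 is a sodium-coupled transporter of short-chain fatty acids and other monocarboxylates rather than of sugar. Slc5a8 was at least 37.3-fold higher in colon. Among 6 measured sterol genes 3 were higher in jejunum, the efflux half-transporters Abcg5 (5.63-fold) and Abcg8 (3.43-fold) and the lipoprotein receptor Scarb1 (3.29-fold). Of 15 regulators 6 were higher and 1 lower. Onecut2 was at least 17.4-fold higher in jejunum, Gata4, a factor of proximal intestine, at least 8.63-fold, and Hnf4g 6.95-fold. From jejunum to ileum the same lists had 4 higher in jejunum and 0 lower (glyceride), 3 and 1 (fatty acid) and 1 and 2 (sugar). The sterol list had 1 and 0, and the regulators 2 and 2. Of all probe sets, 1.85% were higher in jejunum and 2.16% lower. Of the genes just named, Onecut2 (at least 4.13), Gata4 (at least 3.07), Scarb1 (2.79), Rbp2 (2.16), Apoa4 (2.04), Slc27a2 (1.66), Apoc3 (1.26) and G6pc (1.16) were called higher in jejunum than in ileum on the log2 scale, and Slc5a8 (at least 4.71) was called higher in ileum.

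**Figure D2:**
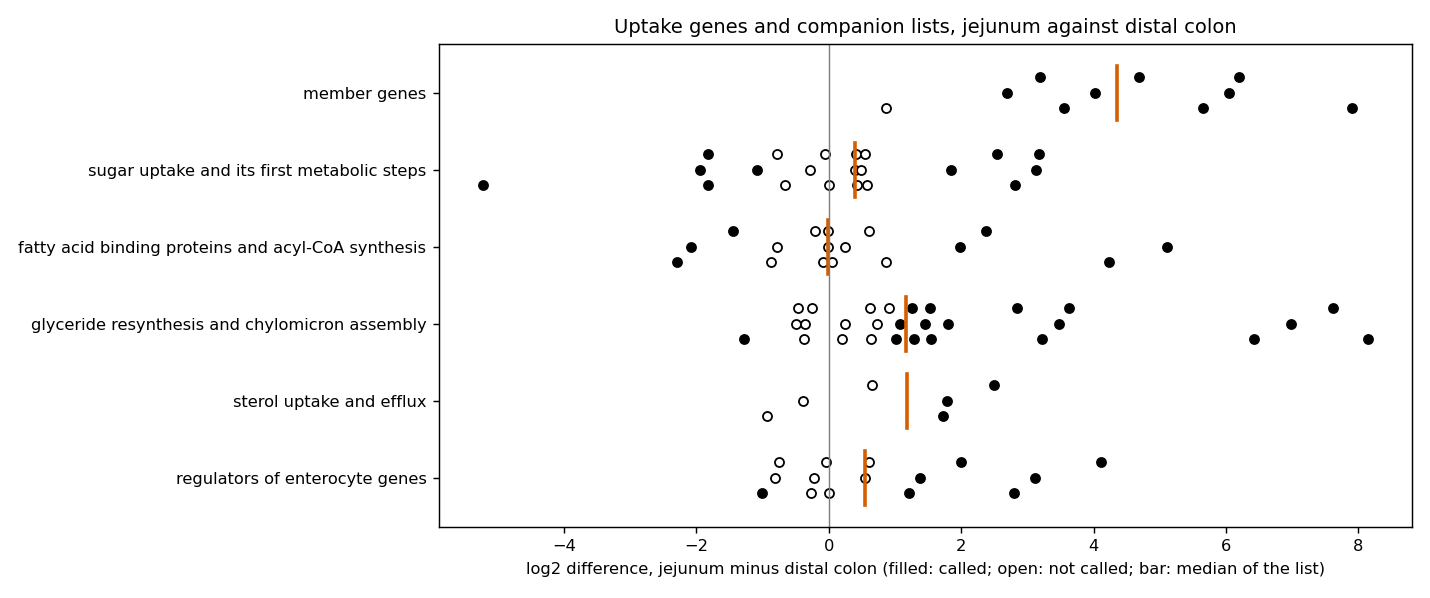
Log2 difference between jejunum and distal colon (horizontal axis, floored values, positive means higher in jejunum) for the 10 uptake genes and 5 companion lists (rows); each point is 1 gene, filled where called by limma, and the bar is the median of the list. The uptake genes have 9 filled points to the right, and the sugar list has 5 on each side.

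The comparison of diets asks whether long intake of yogurt went with a different level of these genes in aged mice. Each tissue has 1 pool per diet, so a diet ratio has no replicate check and no p-value. Most members differed little. In jejunum 8 of 10 genes were lower in the yogurt pool, where 52.9% of all 23127 measured probe sets were, and their median log2 ratio of yogurt over control was -0.17 against -0.009 over all probe sets. None reached 1.5-fold, a size that 0.986% of probe sets passed in either direction. Slc2a2 was lowest at -0.39, followed by Fabp2 (-0.23), Mogat2 (-0.21) and Fabp1 (-0.20), and the exceptions were Npc1l1 (0.22) and Cd36 (0.13). Second probe sets gave 0.02 for Slc5a1 and -0.01 for Mttp, where the first gave -0.17 for each, -0.08 for Fabp1 and -0.26 for Dgat1, and the median of the 10 genes was -0.11 with the mean of each gene's probe sets. On the same pair of arrays the pancreatic enzyme genes had summed levels of 68964 with yogurt and 25569 without, 10 of 10 being higher, and the gastric genes 17479 and 21878, 8 of 8 measured being lower. Epithelial markers were lower for 8 of 12, with a median of -0.07 (64873 against 67697), while 9 of 9 smooth muscle markers (median 0.16, 12708 against 11315) and 8 of 8 measured macrophage markers (median 0.23, 4565 against 4148) were higher. Their part in the lower uptake genes was not tested.

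In ileum the members stayed within -0.35 and 0.24, with a median of -0.02. Of the 10 genes 6 were lower, where 59.5% of all probe sets were, and none passed 1.5-fold against 0.61% of all. Slc2a5 was the lowest, at 7.76 with yogurt against 8.12 in the control pool, and Npc1l1 (0.24) and Cd36 (0.23) were the highest. Slc5a1 and Fabp1 each had a ratio that rounds to 0. Epithelial markers were lower for 9 of 12 (median -0.05, summed level 77435 against 79975) and smooth muscle markers higher for 9 of 9 (median 0.14, 22289 against 20179), and their part was not tested. Of the companion lists, 24 of 27 glyceride and chylomicron genes were lower in ileum (median -0.143) and 23 of 28 in jejunum (median -0.124). The sugar list had 12 of 20 lower in ileum (-0.07) and 9 of 20 in jejunum (0.016), the fatty acid list 9 of 14 (-0.077) and 6 of 14 (0.039), the sterol list 6 of 6 (-0.108) and 4 of 6 (-0.082), and the regulators 10 of 14 (-0.053) and 9 of 15 (-0.062). Past 1.5-fold in ileum were G6pc, at 7.0 with yogurt against 7.92 (1.88-fold lower, though 8.87 against 8.37 in jejunum), Slc5a4b, a relative of Slc5a1, at 6.69 against 7.53 (1.78-fold lower), and the adipocyte protein gene Fabp4, at 10.78 against 10.11 (1.60-fold higher).

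**Figure D3:**
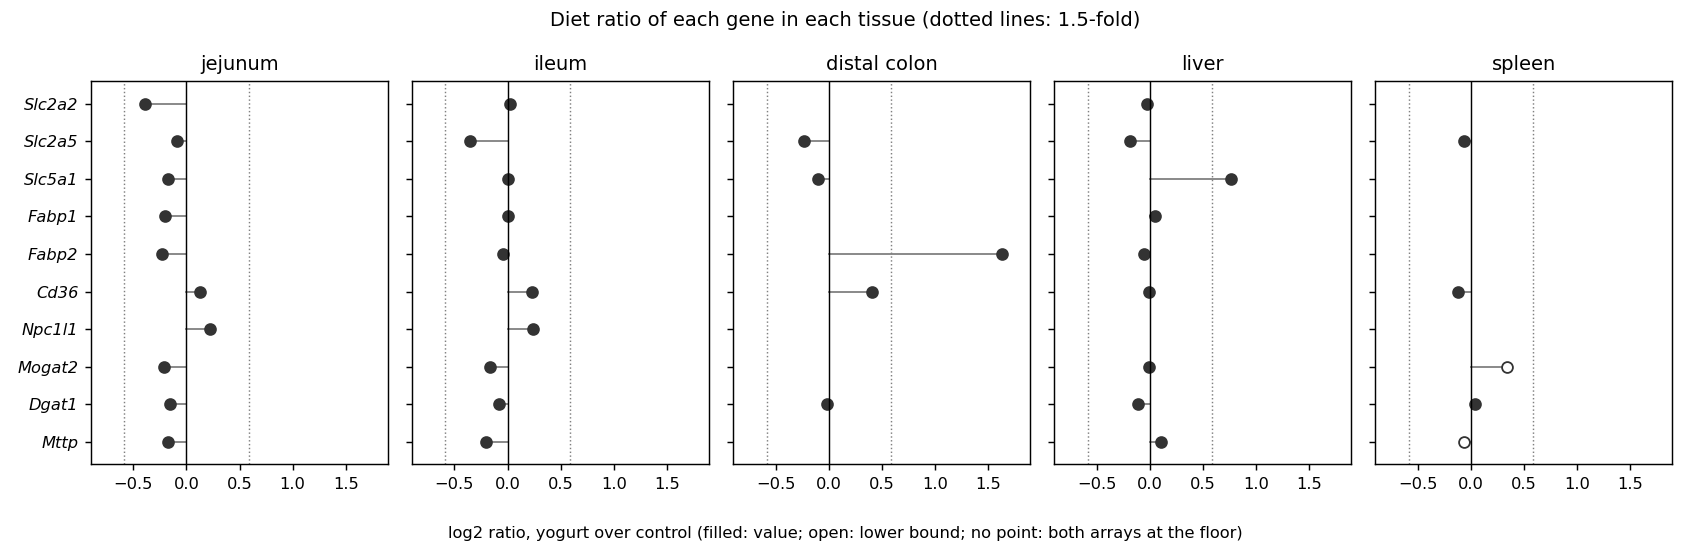
Log2 ratio of the yogurt pool over the control pool (horizontal axis) for each of the 10 genes (vertical axis) in each tissue (panels); filled points are values, open points lower bounds, genes with both pools at the floor have no point, and dotted lines mark 1.5-fold. Fabp2 in distal colon (1.63) and Slc5a1 in liver (0.77) are the 2 points beyond the lines.

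Distal colon held the largest diet difference of the set. Fabp2 stood at 10.39 with yogurt against 8.76 in the control pool, 3.11-fold higher (log2 ratio 1.63), and ranked 34 from the top of 23103 measured probe sets. It was the 1 of 5 measured members past 1.5-fold in either direction, as were 1.07% of all probe sets, and 0.303% were at least 2-fold higher. Of the 5, 3 were lower, where 52.6% of all were, and the median was -0.02. In the other 3 tissues where it was measured, Fabp2 was slightly lower in the yogurt pool, at -0.23 in jejunum, -0.04 in ileum and -0.05 in liver. Its symbol stands on 1 probe set, so a second probe set could not be compared. Of the other 4 members measured in colon, Dgat1 was at -0.02, Slc5a1 at -0.10 (0.30 with its second probe set), Slc2a5 at -0.23 and Cd36 at 0.41. Slc2a2, Fabp1, Npc1l1, Mogat2 and Mttp were at the floor in both colon pools. Of the brush border enzymes among the epithelial markers, the phosphatase Alpi was at 7.48 against 5.09 in the control pool, below the floor (log2 ratio at least 1.99), and the peptidase Anpep was below the floor in both pools (5.18 and 5.25). Of the 3 ileal markers, Fabp6, the ileal bile acid binding protein, was at 8.05 against 7.47, the bile acid transporter Slc10a2 lay barely above the floor with yogurt and below it in the control pool (log2 ratio at least 0.12), and Fgf15 was below it in both, with a summed level of 336 against 217. The chylomicron genes Apoa1, Apoa4 and Apoc3 were below the floor in both colon pools. Cdx2, a homeobox regulator of intestinal genes, was at 9.04 against 8.13 (1.88-fold higher; 0.41 with its second probe set), and Gpat3, an acyltransferase of glyceride synthesis, at 6.30 against 5.70 (1.52-fold higher). The 11 measured epithelial markers had a median of 0.06, with 6 higher and 5 lower, and the 7 named markers of distal position one of -0.21, with 3 higher (Car1 at 1.32, Car4 at 0.40 and Hoxd10 at 0.04) and 4 lower (Aqp8 at -0.21, Hoxb13 at -0.25, Hoxd13 at -0.24 and Hoxa13 at -0.31). All 9 smooth muscle markers were lower (median -0.28, summed level 30298 against 35768). The part of these genes, or of where the colon was taken, in the Fabp2 value was not tested.

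For Cd36 in distal colon the 3 probe sets gave 0.41, 0.34 and at least 0.37. All 5 measured adipocyte markers were higher on the same arrays (median 1.62), among them Adipoq at 7.58 against 5.40, Lpl at 9.39 against 7.77 and Fabp4 at 10.63 against 10.02, and the summed level of the 8 named markers was 4564 against 1927. Cidec, Lep and Pnpla3, the other 3, were below the floor in both pools, and so was Adipoq in the control pool. In ileum, where Cd36 had a ratio of 0.23, the adipocyte sum was 4266 against 2269, and capillary markers were higher for 9 of 10 (median 0.17, 1945 against 1736) and macrophage markers for 6 of 8 (median 0.14, 3995 against 3571). In jejunum, with 0.13, the adipocyte sum was 1990 against 1883, and capillary markers were higher for 5 of 10 (median 0.04). In colon, capillary markers were higher for 5 of 10 and macrophage markers for 4 of 9, both with a median of -0.01. Their part in the Cd36 ratio was not tested.

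**Figure D4:**
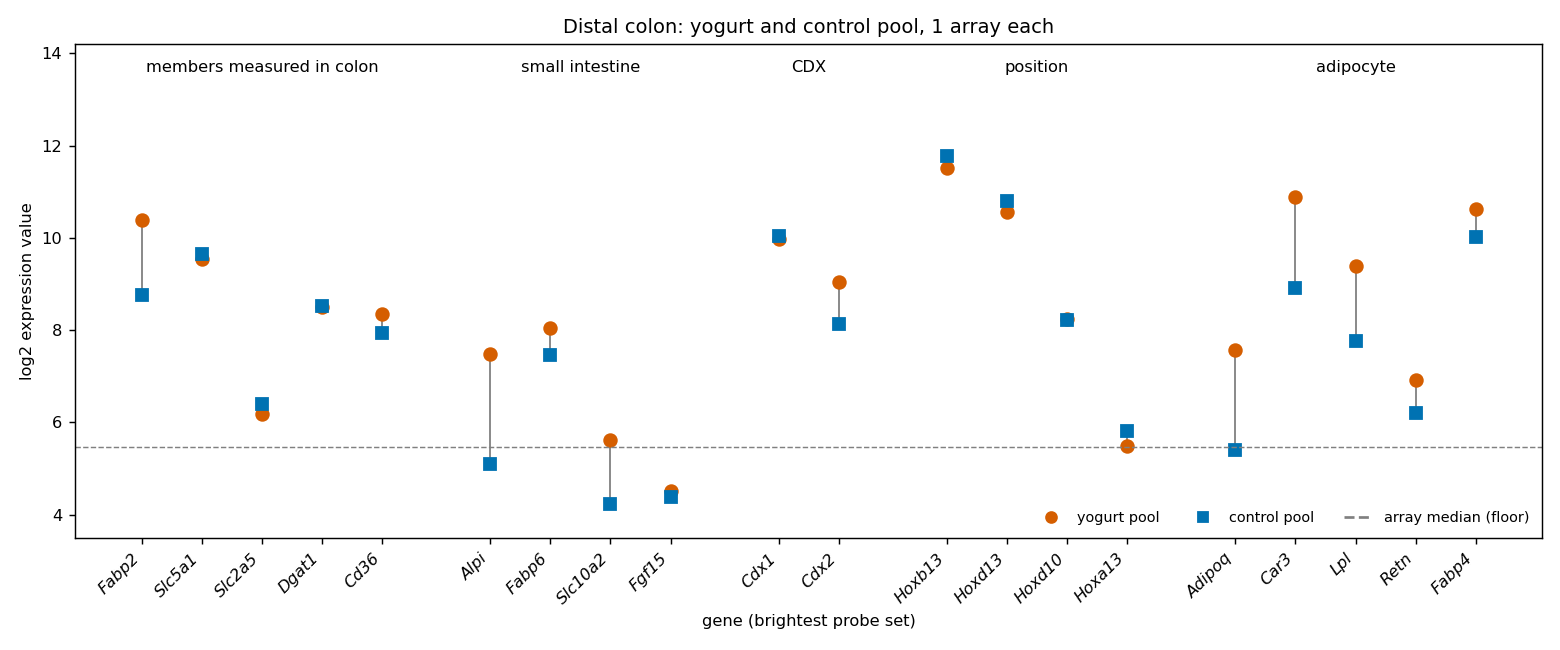
Log2 expression values in distal colon (vertical axis) of the 5 uptake genes measured there, of small intestinal, CDX, position and adipocyte genes (horizontal axis), with a circle for the yogurt pool, a square for the control pool and a dashed line at the mean of the array medians. Fabp2 (10.39 against 8.76), Alpi (7.48 against 5.09) and the fat genes are apart, while Slc5a1, Dgat1 and Hoxd10 nearly coincide. Hoxb13, Hoxd13 and Hoxa13 are lower with yogurt. The position markers Car1, Car4 and Aqp8 and the peptidase Anpep are not drawn.

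In liver the 9 measured members had a median ratio of -0.01, with 6 lower, where 56.3% of all probe sets were. Slc5a1 was the exception, at 6.66 with yogurt against 5.89 in the control pool, 1.71-fold higher (0.77) and ranked 52 from the top of 23129. It was the 1 member past 1.5-fold, as were 0.882% of all probe sets in either direction and 0.402% upward. Both values lay close to the floor, the second probe set was below it in both pools (5.23 and 4.36), and the ratio was 0.16 when the 65th percentile served as floor. On the same arrays 4 of the 7 measured epithelial markers were higher, Epcam (0.58), Cdh1 (0.46), Anpep (0.08) and Krt19 (0.06). The other 3 were lower, Lgals4 (-0.40), Krt8 (-0.17) and Krt18 (-0.13). Their median was 0.06, and the summed level of the whole epithelial list was lower with yogurt (6394 against 6817). The transporter Slc10a2 was higher (0.48). The pancreatic enzyme genes were higher for 5 of 5 measured (median 0.24, 480 against 382). These values too lay near the floor, the highest being Cela3b at 6.77 with yogurt and 6.30 in the control pool. Pnliprp1 was below the floor in the control pool, and Cpa1, Cpb1, Cel, Cuzd1 and Clps in both. The part of these markers in the Slc5a1 value was not tested. Of the 4 members called higher in liver than in spleen at over 10-fold, Fabp1 had a ratio of 0.05, Slc2a2 -0.03, Fabp2 -0.05 and Mttp 0.11. In spleen 5 members were measured, 3 of them lower, where 60.3% of all probe sets were, with a median of -0.06. None passed 1.5-fold, as 1.95% of all probe sets did. Cd36 was at -0.12, -0.22 and -0.31 by its 3 probe sets, Dgat1 at 0.04 and Mogat2 at least 0.34, the last between 5.82 and a control value under the floor. All 10 measured macrophage genes were lower in the yogurt spleen (median -0.22, summed level 15890 against 18114) and all 8 platelet genes higher (median 0.33), and their part in Cd36 was not tested.

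A shift with diet common to the 5 tissues can be asked of the limma fit of tissue and diet. None of the 10 genes passed a limma adjusted p under 0.05, and 0.026% of all probe sets did, 7 of 26905. At an unadjusted p under 0.05 there were 2556 probe sets, and 1 of the 16 of the uptake genes. This was Slc2a5, lower in the yogurt pool in 5 of 5 tissues, with a diet term of -0.185 (SE 0.057, limma adjusted p = 0.446). Its ratios were -0.09 in jejunum, -0.35 in ileum, -0.23 in colon, -0.19 in liver and -0.06 in spleen, where both values (5.69 and 5.75) lay close to the floor. Of all measured probe sets 52.6% to 60.3% were lower in any 1 tissue, and the share lower in all 5 was not counted. The diet terms of Cd36 (0.129, SE 0.074, adjusted p = 0.623) and Fabp2 (0.267, SE 0.255, adjusted p = 0.733) were the largest upward among the brightest probe sets and did not pass. These p-values measure how far a ratio varied over tissues of the same 2 groups of mice, and cannot stand for replicates of the diet.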

How the data were processed

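Gene expression was measured in 5 tissues of pooled mice on 2 diets, 10 arrays in all. The values are log2 expression values per probe set as the authors deposited them. MAS5 and affy are named in the submitters' processing notes, without version or role; for summarisation and scaling the method was not given in the sources used here. Nothing further was scaled. Probe sets took their symbol from the platform annotation, updated by gene number to the RefSeq annotation of GRCm38.p6: 34945 had 1 symbol, of which 34741 matched by number, 932 had several and were not named, and 9160 had none. The 64 array controls were left out.

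The 50th percentile of an array was its floor, and lower values were set to it. Probe sets above it on at least 2 arrays (26905, with all 16 of the uptake genes) were fitted with limma 3.58.1 in R 4.3.3 (lmFit, eBayes with trend) on tissue and diet, with 4 residual degrees of freedom, and p-values were adjusted by Benjamini-Hochberg over all of them. All 10 tissue pairs were contrasted. A probe set at the floor in a tissue shows almost no spread there, so its SE and p-value can be too small, and each fit was repeated without the floor. In the diet comparison a probe set was measured where at least 1 of 2 arrays lay above the floor. The number of arrays limits the precision.

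The members and gene lists were chosen with earlier results of these data known. Of 99 companion genes, 87 could be named. Named from each list were the 3 genes called with the largest difference between jejunum and colon, and those past 1.5-fold between the diets in a gut segment. For each member the 3 genes most correlated with it were also named. Genes beside them in colon (Alpi, the ileal, position and fat genes) come from marker lists. Alternatives changed the floor, normalization, centring, pseudocount, filter, probe set choice, model terms and arrays used.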

Additional observations from a re-analysis of the deposited data

Results flagged for a closer look

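The diet ratio of Fabp2 in distal colon, 1.63, lay far from its ratios in the other 3 tissues where it was measured, which ran from -0.23 to -0.04. The gap was 0.90 of the whole range of the 4 ratios, past the critical value of Dixon's test for a single outlying value. By chance about 1 in 20 such groups would be marked, and 10 genes were examined. The 2 colon pools had 1 array each, and the gene has 1 probe set.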

How the results depend on the processing

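No member passed for the diet term under any of 21 alternatives, and the called members numbered 3 for jejunum against ileum and 9 for ileum against colon under 21, and 7 against liver and 10 against spleen for jejunum under 20. Jejunum against colon ranged from 9 to 10 over the arrays left out in turn, gaining Cd36 at 1.04 without the yogurt colon array. A median diet ratio counted as moved where it shifted by at least the SD of all ratios in that tissue: that of colon went from -0.02 to 0.19 with a higher floor (65th percentile), and no other median moved. The Fabp2 ratio in colon ranged from 1.57 to 1.69. That of Mogat2 in spleen was 0.57 without a floor or with a lower one (35th percentile), and that of Slc5a1 in liver 0.55 with a pseudocount of 32.

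The values that changed sign had not passed the test. Cd36 in ileum minus colon ran from -0.12 (without the control colon array) to 0.24 and was 0.00 without the yogurt ileum array. Diet terms over the arrays left out in turn ran from -0.04 to 0.02 for Fabp1, -0.08 (without either colon array) to 0.39 for Fabp2, -0.10 to 0.04 for Mogat2 (0.03 without either ileum array) and -0.06 (without either liver array) to 0.17 for Slc5a1. The Mogat2 term was also 0.04 without a floor or with the lower one, and that of Slc5a1 -0.03 with the higher floor and -0.09 over the 6 gut arrays. The cause was not tested. The fit pairs the yogurt and control pools of a tissue by its tissue term, and with tissue as a random block 0 members passed for diet, as before. The labels number no replicates by which to pair otherwise.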
